A study of Mus musculus with 12 samples.

Results

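Toll-like receptors, the family that senses microbial molecules on and in macrophages, were examined in RAW 264.7 cells after transfection of a miR-223 mimic or inhibitor. The members were the rows of the deposited expression table whose only gene symbol was Tlr1, Tlr2, Tlr3, Tlr4, Tlr5, Tlr6, Tlr7, Tlr8, Tlr9 or Tlr13. This gave 10 members among 22180 named genes, each with 1 transcript cluster, the unit in which the array sums the probes of a gene. All 10 passed the filter on low signal, a mean above log2 2.01, and so were among the 14611 genes tested. Tlr1, Tlr2, Tlr4, Tlr5 and Tlr6 were described as the 5 surface receptors, and Tlr3, Tlr7, Tlr8, Tlr9 and Tlr13 as the 5 endosomal receptors.

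RAW 264.7 is a mouse line of adherent monocyte/macrophage cells that Abelson murine leukemia virus transformed. All cells were transfected and collected 48 h later. The 3 groups received an irrelevant scramble oligonucleotide (Scramble), a miR-223 mimic, which supplies the microRNA (Pre-miR-223), or a miR-223 inhibitor (Anti-miR-223), with 4 arrays each, 12 in all. No untransfected cells were among the samples used here, and no microbial ligand is named in the labels, so the values describe receptor transcripts in transfected cells of 1 line. The arrays are titled as biological replicates, but nothing states that they came from separate cultures, so p-values measure the spread between these samples, which may be technical.

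Toll-like receptors are membrane proteins with a leucine-rich ligand-binding part and a cytoplasmic TIR domain. Surface receptors bind bacterial lipids and proteins: Tlr2 pairs with Tlr1 or Tlr6 to bind lipopeptides, Tlr4 binds lipopolysaccharide with its partner Ly96 and the carrier Cd14, and Tlr5 binds flagellin. Endosomal receptors bind nucleic acids after Unc93b1 has carried them to the endosome: Tlr3 binds double-stranded RNA, Tlr7 single-stranded RNA, Tlr9 unmethylated CpG DNA and Tlr13 bacterial ribosomal RNA, while the ligand of mouse Tlr8 is less settled. Most members signal through the adaptor Myd88, Tlr3 through Ticam1, and Tlr4 through both, towards NF-kB and interferon regulatory factors.

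The oligonucleotides of the treated groups were made to mimic or inhibit miR-223, a microRNA typical of the myeloid lineage. A microRNA pairs with messenger RNA mainly through its seed, bases 2 to 8, and miR-223 gives a mature strand from each arm of its hairpin. Both mature strands are shown, because the labels do not say which strand the mimic and the inhibitor were built on. They are from RefSeq (GRCm38.p6), written 5′ to 3′ with the seed in capitals. The 3p strand lies at chrX:96242884-96242905 and the 5p strand at chrX:96242842-96242864, both on the plus strand, and their seeds differ.
mmu-miR-223-3p: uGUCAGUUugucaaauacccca
mmu-miR-223-5p: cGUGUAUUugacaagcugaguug

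Mir223 had no cluster of its own, and delivery of the mimic and the inhibitor was not checked here. Values are log2 signals normalised between arrays, and the array medians over all clusters lay between 2.21 and 2.31. The macrophage label fitted the defining markers, of which 8 of 9 lay above the level for testing, with means of 11.19 for Lyz2, 9.81 for Cd68 and 9.19 for Csf1r; Mrc1 was below it. Lymphocyte markers passed that level for 2 of 7 genes, neutrophil markers for 2 of 6, epithelial markers for 3 of 6, fibroblast markers for 4 of 6 and dendritic cell markers for 4 of 6. The lymphocyte, neutrophil and fibroblast markers that passed had means from 2.02 for Cd4 to 2.53 for Col1a1, near that level. The highest epithelial mean was 3.52, for Krt8. Among dendritic cell markers Cd209a stood at 9.11 and Bst2 at 6.61, and Flt3 and Xcr1 at 2.04 and 2.60. One array differed from the rest, replicate 4 of Anti-miR-223. Across genes, which are not independent replicates, its correlation with the other arrays had a median of 0.967, against 0.988 to 0.992 for the others. In that array 629 genes (4.3%) lay over 2-fold from their 12-array mean, where no other array had more than 37, and 71 small nucleolar RNA genes had a median of -1.43 relative to that mean. The main receptor results that rest on this array are therefore given with and without it. For the pathway genes this was done in part.

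**Figure D1:**
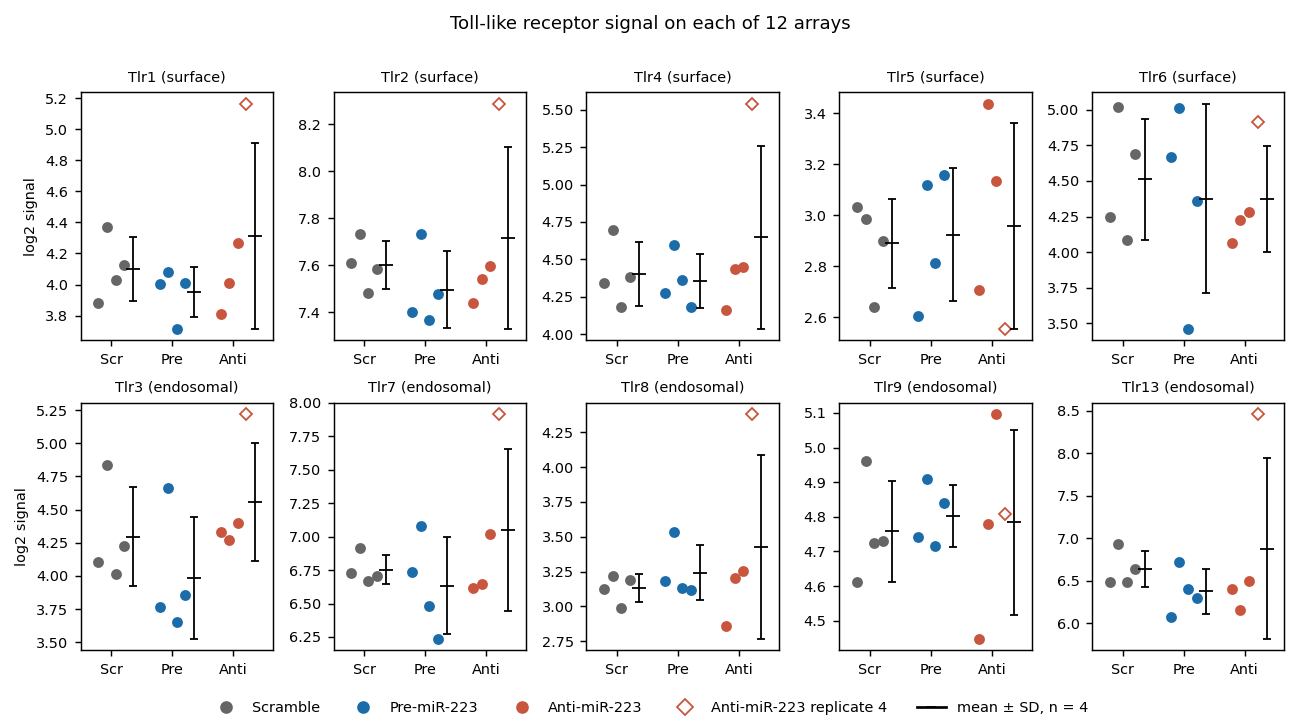
Log2 signal of each of the 10 receptors (panels) on each of the 12 arrays (points), by group, with bars for the group mean and SD (n = 4 arrays). The groups overlap in every panel, and replicate 4 of Anti-miR-223 is the highest point for 7 of the 10 receptors.

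Among the surface receptors, transcript levels in the 3 groups overlapped for every gene. Tlr2, the shared partner of the lipopeptide receptors, had a log2 signal of 7.61, 7.73, 7.48 and 7.58 in the Scramble arrays. It read 7.40, 7.73, 7.37 and 7.48 after Pre-miR-223 and 7.44, 7.54, 7.59 and 8.29 after Anti-miR-223. A single array, replicate 4 of Anti-miR-223, lay above the rest, and the group means were 7.60 ± 0.10 for Scramble, 7.50 ± 0.17 for Pre-miR-223 and 7.71 ± 0.39 for Anti-miR-223 (SD, n = 4). Without that array the Anti-miR-223 mean was 7.52 ± 0.08 (SD, n = 3).

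Tlr1, which pairs with Tlr2 on triacylated lipopeptides, read 3.88, 4.37, 4.03 and 4.13 in Scramble. It read 4.004, 4.08, 3.71 and 4.01 after Pre-miR-223 and 3.81, 4.01, 4.27 and 5.17 after Anti-miR-223. Again the last Anti-miR-223 array was the highest of the 12, and the other 11 spanned 3.71 to 4.37. Tlr6, which pairs with Tlr2 on diacylated lipopeptides, read 4.25, 5.02, 4.09 and 4.69 in Scramble. After Pre-miR-223 it read 4.67, 5.01, 3.46 and 4.36, and after Anti-miR-223 4.07, 4.22, 4.28 and 4.92. Here the highest arrays were replicate 2 of Scramble and replicate 2 of Pre-miR-223, and the Pre-miR-223 SD of 0.67 was larger than any distance between Tlr6 group means.

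Tlr4, the lipopolysaccharide receptor, read 4.34, 4.70, 4.18 and 4.38 in Scramble. It read 4.28, 4.60, 4.36 and 4.18 after Pre-miR-223 and 4.16, 4.44, 4.45 and 5.54 after Anti-miR-223. The Scramble and Pre-miR-223 arrays covered nearly the same range, and the Anti-miR-223 mean of 4.65 ± 0.61 became 4.35 ± 0.16 without replicate 4. Tlr5, the flagellin receptor, was the member closest to the lowest level tested, with 3.03, 2.99, 2.64 and 2.90 in Scramble. It read 2.61, 3.12, 2.81 and 3.16 after Pre-miR-223 and 2.71, 3.44, 3.13 and 2.56 after Anti-miR-223. Replicate 4 of Anti-miR-223 was the lowest of the 12 arrays for Tlr5, the opposite of its place for Tlr1, Tlr2 and Tlr4.

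The endosomal receptors overlapped between groups in the same way, and the largest single departure in the family was in Tlr13. This receptor of bacterial ribosomal RNA read 6.49, 6.93, 6.49 and 6.63 in Scramble. It read 6.08, 6.72, 6.41 and 6.29 after Pre-miR-223 and 6.40, 6.16, 6.50 and 8.46 after Anti-miR-223. The last value lay 2.00 above the mean of the other 11 arrays on the log2 scale, and the Anti-miR-223 mean of 6.88 ± 1.06 became 6.35 ± 0.17 without it.

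Tlr7, the single-stranded RNA receptor, read 6.73, 6.91, 6.67 and 6.71 in Scramble. It read 6.74, 7.08, 6.48 and 6.23 after Pre-miR-223 and 6.62, 6.65, 7.02 and 7.92 after Anti-miR-223. Tlr8, its neighbour on the X chromosome, read 3.13, 3.22, 2.99 and 3.19 in Scramble. After Pre-miR-223 it read 3.18, 3.54, 3.13 and 3.12, and after Anti-miR-223 2.86, 3.21, 3.26 and 4.38. For both neighbours the highest of the 12 arrays was replicate 4 of Anti-miR-223, and the other 11 arrays of each overlapped across the groups.

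Tlr3, the double-stranded RNA receptor, read 4.10, 4.84, 4.02 and 4.23 in Scramble. It read 3.77, 4.66, 3.65 and 3.85 after Pre-miR-223 and 4.33, 4.27, 4.40 and 5.22 after Anti-miR-223. Of the Pre-miR-223 arrays, 3 lay below all arrays of the other groups, and replicate 2 lay among the highest. Tlr9, the CpG DNA receptor, read 4.61, 4.96, 4.72 and 4.73 in Scramble. It read 4.74, 4.91, 4.72 and 4.84 after Pre-miR-223 and 4.45, 4.78, 5.10 and 4.81 after Anti-miR-223. Unlike the other endosomal receptors, Tlr9 had an unremarkable value in replicate 4 of Anti-miR-223, 0.03 above the mean of the other arrays.

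**Figure D2:**
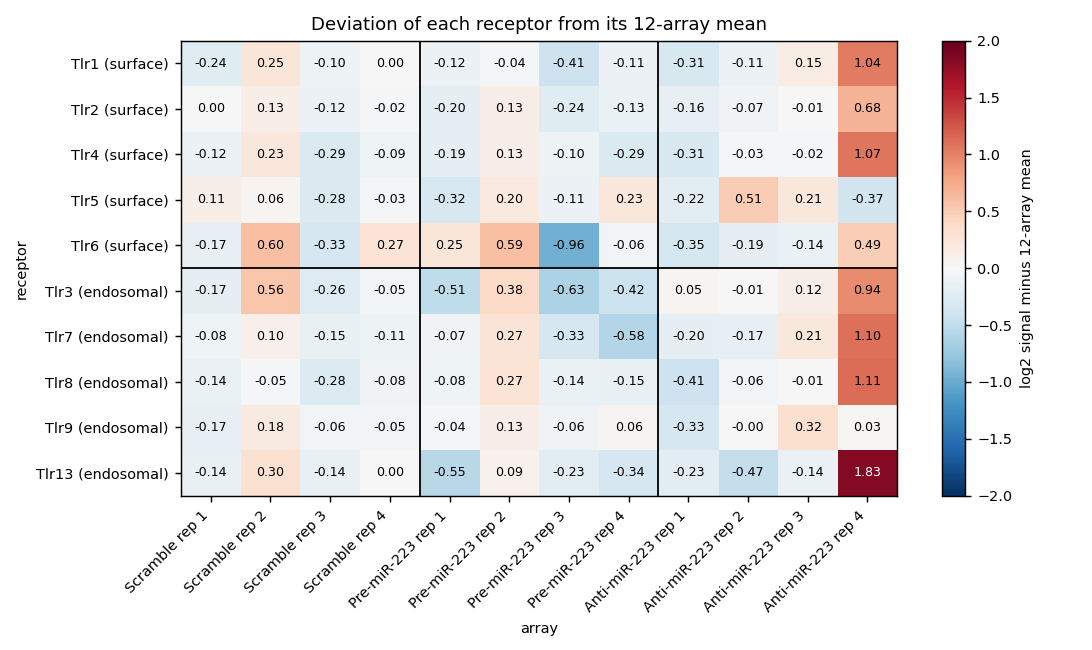
Log2 signal minus the 12-array mean for each receptor (rows, surface above endosomal) on each array (columns, by group), in colour. Replicate 4 of Anti-miR-223 is high for most rows, and replicate 2 of Scramble and replicate 2 of Pre-miR-223 are high to a lesser degree.

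Spread between arrays of a group was wider for the family than for most genes. The SD pooled over the 3 groups had a median of 0.40 over the members against 0.19 over all tested genes, and 9 of 10 members lay above that all-gene median. It ran from 0.18 for Tlr9 to 0.65 for Tlr13, with 0.50 for Tlr6, the largest among the surface receptors. Without replicate 4 of Anti-miR-223 the medians were 0.21 for the members and 0.17 for all genes, and the range ran from 0.13 for Tlr2 to 0.49 for Tlr6, with 0.19 for Tlr9 and 0.23 for Tlr13. In the remaining 11 arrays, 101 of the 110 values lay within 0.5 of the 12-array mean of their gene, and the extremes were both Tlr6, from -0.96 in replicate 3 of Pre-miR-223 to 0.60 in replicate 2 of Scramble.

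Signals of the receptors varied together from array to array. Their mean distance from the 12-array mean was 0.24 in replicate 2 of Scramble and 0.22 in replicate 2 of Pre-miR-223, where 9 of 10 members lay above their mean. It was -0.20 in replicate 3 of Scramble and -0.32 in replicate 3 of Pre-miR-223, where 0 of 10 did. The median distance over all tested genes in these 4 arrays ran the same way but was smaller, 0.07, 0.036, -0.01 and -0.047. Over the 11 arrays without replicate 4 of Anti-miR-223, Pearson's r was above 0 for all 45 pairs of members, from 0.04 for Tlr5 with Tlr13 to 0.87 for Tlr2 with Tlr3, with a median of 0.58. The partners Tlr1 and Tlr2 had r = 0.71, Tlr2 and Tlr6 r = 0.74, and Tlr7 and Tlr8 r = 0.60. With the mean of each group subtracted first, an alternative chosen after seeing the data, r was again above 0 for all 45 pairs, from 0.07 to 0.92 with a median of 0.65. These correlations are a description, since the arrays share their cell line and each array's preparation enters every gene measured on it. The share of positive pairs among all tested genes was not computed, so the values do not set the family apart from other genes.

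Pre-miR-223 against Scramble asked whether the miR-223 mimic moved the receptors, and no member differed beyond the spread between arrays. Of the 10 members, 3 had a higher mean after Pre-miR-223 and 7 a lower one, beside 9525 of 14611 genes lower. The members' median log2 difference was -0.11 beside -0.05 for all tested genes. Their split was 4 higher and 6 lower once each array was centred on its median or quantile-normalised again, beside 6277 and 8848 genes lower. The median used for centring was not the one over all clusters given above. Centring turned the all-gene median difference to 0.03, and repeated quantile normalisation left it at -0.035. The largest differences were in endosomal receptors: Tlr3 differed by -0.31 (95% confidence interval -0.86 to 0.24) and Tlr13 by -0.26 (-1.07 to 0.55). Among surface receptors the largest was Tlr1 at -0.15 (-0.64 to 0.34), and Tlr9 had the narrowest interval, 0.04 (-0.24 to 0.32). A lower signal in such bulk samples cannot tell fewer cells with the transcript from less of it per cell.

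The test was limma's moderated test on all 12 arrays with Benjamini-Hochberg adjustment over 14611 genes. It called 0 of 10 members against a background of 0 of 14611 genes, 0%, and the lowest adjusted p of a member was 0.931, for Tlr3. At an unadjusted p under 0.05, 0 of 10 members passed beside 711 genes, 4.87%. The groups did not overlap for 0 of 10 members beside 435 genes, 2.98%. Leaving out replicate 2 of Pre-miR-223, the only array of that group with a high Tlr3 signal, brought Tlr3 to -0.54. Tlr3 was then the only member under an unadjusted limma p of 0.05, beside 1510 of 14611 genes, and was not called. Leaving out replicate 2 of Scramble, also high, instead brought Tlr3 to -0.13. In each of the 30 differences of a member over the 3 comparisons, leaving out some single array moved the value by over 1.5 times. The intervals excluded a 2-fold difference for 9 of 10 members, beside 14390 of 14611 genes. They excluded a 1.5-fold difference for 4 of 10 members, beside 82.8% of genes. With replicate 4 of Anti-miR-223 left out of the shared spread, those counts were 10 and 8 of 10, beside 14530 genes and 90.9%. The Tlr13 interval then became -0.56 to 0.04.

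Anti-miR-223 against Scramble asked the converse, whether the miR-223 inhibitor moved the receptors, and the answer turned on 1 array. Of the 10 members, 9 had a higher mean after Anti-miR-223, all but Tlr6, beside 6946 of 14611 genes. Under centring it was 9 too, beside 7070 genes. The members' median log2 difference was 0.23 beside -0.01 for all tested genes. The largest were Tlr7 at 0.30, Tlr8 at 0.29, Tlr3 at 0.26, Tlr4 at 0.25 and Tlr13 at 0.24. Without replicate 4 of Anti-miR-223, 4 members were higher and 6 lower, beside 9294 genes lower, and the median was -0.04 beside -0.05 for all genes. The same differences were then 0.01 for Tlr7, -0.02 for Tlr8, 0.04 for Tlr3, -0.05 for Tlr4 and -0.28 (-0.61 to 0.04) for Tlr13. Tlr6 went from -0.14 to -0.32 and Tlr5 from 0.07 to 0.20.

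No member was called in either fit by limma with Benjamini-Hochberg adjustment, beside a background of 0% of genes in the 12-array fit, where the lowest adjusted p of a member was 1. At an unadjusted p under 0.05, 0 of 10 members passed beside 294 genes, 2.01%. Non-overlapping groups were found for 0 of 10 members beside 227 genes, 1.55%. The interval excluded a 1.5-fold difference for 3 of 10 members with all arrays, beside 88.1% of genes. Without replicate 4 it did so for 8 of 10 members, beside 89.1%.

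Pre-miR-223 against Anti-miR-223 set the treated groups against each other; it shares its arrays with both comparisons above and is no independent test of them. Of the 10 members, 2 were higher after Pre-miR-223 and 8 lower, or 3 and 7 after centring. Genes lower numbered 9174 of 14611, or 5986 after centring. The members' median log2 difference was -0.26 beside -0.05 for all genes. Tlr3 had the largest difference at -0.57 (-1.12 to -0.02), ahead of Tlr13 at -0.51 (-1.31 to 0.30), Tlr7 at -0.42 and Tlr1 at -0.36. Without replicate 4 of Anti-miR-223 the family split 5 to 5, beside 7627 genes lower, with a median of -0.01 beside -0.01. Tlr3 then stood at -0.35, Tlr7 at -0.13, Tlr1 at -0.08 and Tlr13 at 0.02.

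Tlr3 was the only member with an unadjusted limma p under 0.05, at 0.0427, beside 528 genes, 3.61%, and its Benjamini-Hochberg adjusted p was 0.946. Its unadjusted limma p was 0.13 without replicate 4 of Anti-miR-223, with an interval of -0.82 to 0.12, and 0 of 10 members passed beside 4.89% of genes. Calls were 0 of 10 members and 0% of genes, and non-overlapping groups 0 of 10 members beside 244 genes, 1.67%. The order of the 3 group means also differed without 1 array: Anti-miR-223 had the highest mean for 8 of 10 members, but for 3 of 10 without its replicate 4, when Scramble had the highest for 5.

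**Figure D3:**
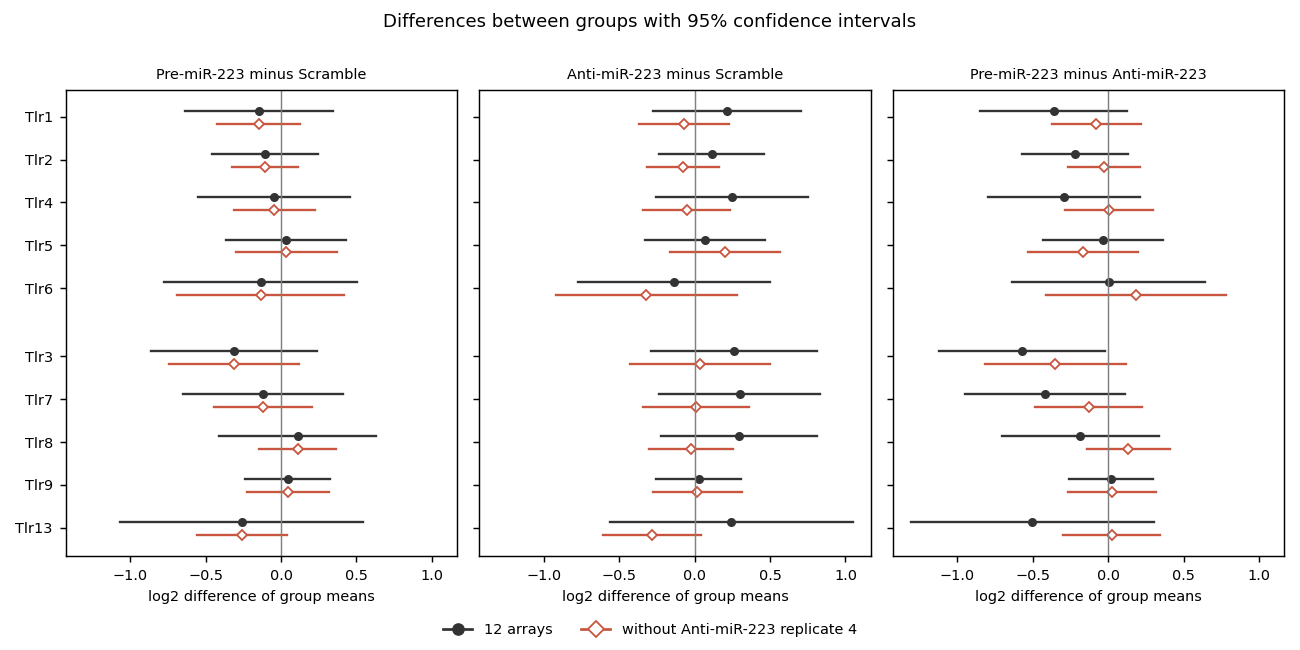
Log2 difference of group means for each receptor in the 3 comparisons (panels), with 95% confidence intervals from limma, for all 12 arrays and for the 11 arrays without replicate 4 of Anti-miR-223. With 12 arrays every interval crosses 0 except Tlr3 in Pre-miR-223 against Anti-miR-223, -1.12 to -0.02, and the Tlr13 intervals narrow most once that array is left out.

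Replicate 4 of Anti-miR-223 held high signals for most of the family, in both classes of receptor. Against the mean of the other 11 arrays, its log2 signal was higher by 2.00 for Tlr13, 1.22 for Tlr8, 1.21 for Tlr7 and 1.03 for Tlr3, and by 1.17 for Tlr4, 1.14 for Tlr1, 0.75 for Tlr2 and 0.54 for Tlr6. Tlr9, at 0.03, and Tlr5, at -0.40, did not share this. The median was 1.21 over endosomal and 0.75 over surface receptors, whose values interleaved and were not tested against each other, and 1.08 over all members beside 0.08 over all tested genes. Over 2-fold higher signals occurred in 6 of 10 members beside 647 genes, 4.43%. Over 1.5-fold higher signals occurred in 7 of 10 members beside 2344 genes, 16%, and the highest of the 12 values in 7 of 10 beside 4980 genes, 34.1%. These are values of 1 array and have no replicate check.

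The 8 tested macrophage markers were also higher in that array, where the median over all tested genes was 0.08. Itgam, an integrin chain, was higher by 0.92, Fcgr1, an IgG receptor, by 0.76, and Csf1r, the M-CSF receptor, by 0.71. Cd14 was higher by 0.71, the myeloid transcription factor Spi1 by 0.59, Cd68 by 0.345, Adgre1 by 0.30 and Lyz2 by 0.14. The summed linear signal of the 9 macrophage markers was 6920 in that array, against 5220 to 6180 in Scramble and 4260 to 5840 in Pre-miR-223. The dendritic cell markers summed to 229 there against 695 to 802 in Scramble, a sum that rests mostly on Cd209a, which lay at -2.12 relative to the other 11 arrays. The part of these differences, and of the low small nucleolar RNA signals, in the receptor values was not tested.

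**Figure D4:**
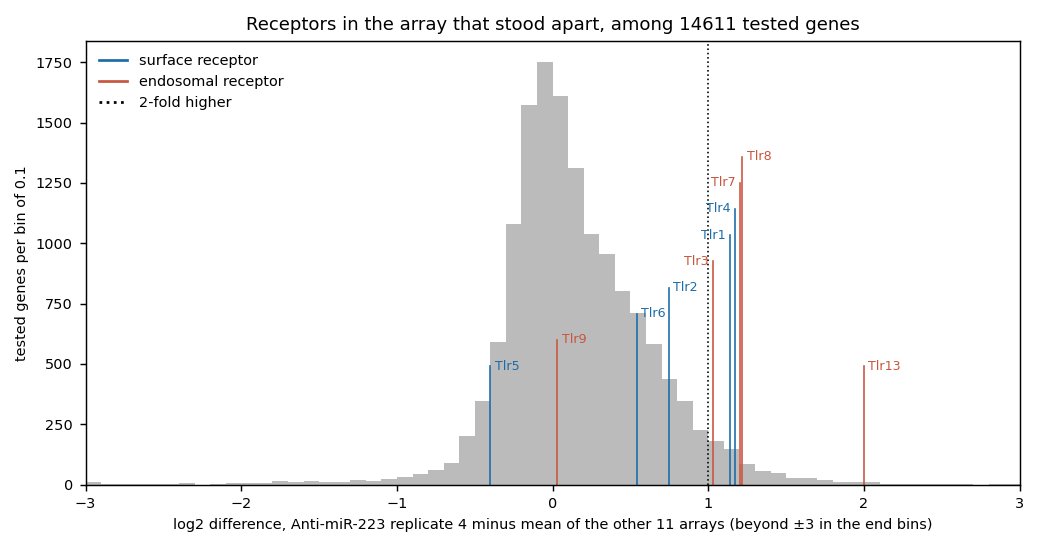
Log2 signal in replicate 4 of Anti-miR-223 minus the mean of the other 11 arrays, as a histogram over the 14611 tested genes with each receptor marked by a line whose height only separates the labels. Tlr13 lies at 2.00, Tlr9 at 0.03 and Tlr5 at -0.40, against a median of 0.08 over all genes.

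Promoter sequence is shown for 3 endosomal receptors that differed in this array, Tlr13 and Tlr8 on the high side and Tlr9 near the mean. Sequences are from RefSeq (GRCm38.p6), 250 bases before to 50 after the annotated start, 5′ to 3′ along the strand of the gene, and 8 of 10 members had an entry. Capitals mark matches on either strand to the PU.1 core GAGGAA, the AP-1 motif TGANTCA, the NF-kB motif GGNNTTTCC or the interferon-stimulated response element GAAANNGAA. Tlr13 spans chrX:106143025-106143324 on the plus strand, Tlr8 chrX:167264280-167264579 on the minus strand and Tlr9 chr9:106222348-106222647 on the plus strand.
Tlr13: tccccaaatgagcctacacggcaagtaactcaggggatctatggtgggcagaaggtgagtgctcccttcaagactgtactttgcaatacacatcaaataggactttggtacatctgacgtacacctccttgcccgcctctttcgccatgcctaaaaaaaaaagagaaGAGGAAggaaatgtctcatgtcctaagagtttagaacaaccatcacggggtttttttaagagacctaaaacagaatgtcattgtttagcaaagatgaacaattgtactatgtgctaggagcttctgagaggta
Tlr8: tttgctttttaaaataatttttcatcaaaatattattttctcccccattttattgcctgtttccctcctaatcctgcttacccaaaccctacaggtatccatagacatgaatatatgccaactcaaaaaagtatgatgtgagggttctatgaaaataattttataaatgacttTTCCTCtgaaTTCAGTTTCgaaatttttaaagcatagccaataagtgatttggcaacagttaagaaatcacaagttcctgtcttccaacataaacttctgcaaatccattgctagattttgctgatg
Tlr9: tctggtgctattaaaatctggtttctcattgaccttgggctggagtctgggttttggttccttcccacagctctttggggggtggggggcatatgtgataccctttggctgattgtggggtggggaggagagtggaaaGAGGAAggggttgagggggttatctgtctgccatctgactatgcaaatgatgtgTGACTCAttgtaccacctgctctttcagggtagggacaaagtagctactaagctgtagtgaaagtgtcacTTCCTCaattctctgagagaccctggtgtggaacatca

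PU.1 is the product of Spi1, and its core was found once in the Tlr13 and Tlr8 windows and at 2 places in the Tlr9 window, so both kinds of receptor held it. The 10 listed windows belong to 8 members, as Tlr1 and Tlr6 have more than 1 each and Tlr4 and Tlr7 have none. Over these windows the core was in 4, beside 28.3% of 32851 promoters of the same length. They were 1 of the Tlr1 windows and those of Tlr8, Tlr9 and Tlr13. The AP-1 motif was in the Tlr9 window, beside 7.81% of promoters, and the interferon element in 1 of the Tlr6 windows and in the Tlr8 window, beside 8.56%. The NF-kB motif was in the Tlr3 and Tlr5 windows, beside 5.82%. The matches shown do not overlap one another, and a match is a description of the letters in this window, not of binding.

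Genes with the pattern most like a receptor were taken by the highest Pearson's r over the 12 arrays, for the most variable member of each class and for Tlr4 and Tlr9. For Tlr13 these were Slc11a1, a macrophage metal transporter (r = 0.989), Ankrd49 (0.989) and AW549877 (0.987), with 0.978, 0.916 and 0.903 over the 11 arrays without replicate 4 of Anti-miR-223. For Tlr4 they were Nup155, a nuclear pore protein (0.984), Tmem144 (0.981) and Dapp1 (0.979), with 0.920, 0.899 and 0.886 over 11 arrays. For each of these 6 genes r was lower without that array, and over the 11 arrays the closest genes were partly others: Slc11a1, Ocrl and Spg21 for Tlr13, and Fnbp1, Rabl6 and Serac1 for Tlr4. For Tlr6 the closest were Atp2a3, a calcium pump (0.929), Rbbp6 (0.910) and Cep63 (0.883), and for Tlr9 Ptpn2, a tyrosine phosphatase (0.890), Kcnk7 (0.890) and Sltm (0.882). Their values over 11 arrays were 0.939, 0.910 and 0.867 for the Tlr6 genes and 0.899, 0.912 and 0.885 for the Tlr9 genes. Over 11 arrays Atp2a3 stayed closest to Tlr6, followed by Ckap2 and Mtmr10, and the closest to Tlr9 were Vapb, Kcnk7 and Kcnq1ot1. Being the highest of 14611 values, they are given as a description.

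Genes that act with the receptors were listed by role, 78 genes in 8 lists; 69 were tested, 3 lay below the level for testing (Ifnb1, Il6 and Lbp), and 6 had no cluster of their own symbol (Chuk, Il1rl1, Irak4, Irf5, Nfkb1 and Traf3). None of the 69 was called in any comparison by limma with Benjamini-Hochberg adjustment, beside 0% of all genes. For Pre-miR-223 against Scramble, 14 were higher and 55 lower, beside 9525 of 14611 genes lower, with a median of -0.12 beside -0.05 for all genes. Of the 69, 3 (4.35%) had an unadjusted limma p under 0.05, all lower, beside 4.87%. For Anti-miR-223 against Scramble 30 were higher and 39 lower, beside 7665 genes lower, with a median of -0.04, and 0 passed, beside 2.01%. For Pre-miR-223 against Anti-miR-223 13 were higher and 56 lower, beside 9174 genes lower, with a median of -0.10. In that comparison 4 (5.8%) passed, all lower, beside 3.61%. The shares passing were near the background in each comparison. The split depended on the scaling: after centring, 31 were higher and 38 lower for Pre-miR-223 against Scramble, and 30 and 39 for Pre-miR-223 against Anti-miR-223. Over all tested genes, 6277 and 5986 of 14611 were lower after centring in these comparisons. Repeated quantile normalisation gave 25 higher and 44 lower in the first, beside 8848 genes lower. In the second it gave 18 and 51, beside 8418 genes lower. Without replicate 4 of Anti-miR-223 the number at an unadjusted limma p under 0.05 was 5 (7.25%, beside 9.38% of all genes) for Pre-miR-223 against Scramble and 3 (4.35%, beside 4.89%) for Pre-miR-223 against Anti-miR-223. For Anti-miR-223 against Scramble it went from 0 to 6 (8.7%, beside 6.69%), with Sigirr higher and Lrrc59, Ikbkg, Irf3, Tnfaip3 and Trafd1 lower. The 5 genes for Pre-miR-223 against Scramble were Ly86, Lrrc59, Rela, Irf3 and Irf7, all lower. The 3 for Pre-miR-223 against Anti-miR-223 were Ikbkg, higher, and Sigirr and Il12b, lower. Without that array, 12 were higher and 57 lower for Anti-miR-223 against Scramble, beside 9294 genes lower. For Pre-miR-223 against Anti-miR-223 the counts were 34 and 35, beside 7627 genes lower.

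Coreceptors and ligand carriers sit at the membrane with the receptors. All 8 tested were lower after Pre-miR-223 than in Scramble, with a median of -0.14, but 5 of 8 after median centring. Over all tested genes, 9525 of 14611 were lower, and 6277 after centring. Ly86, the partner of the Tlr4 homologue Cd180, differed by -0.48 with an unadjusted limma p of 0.0335. Ly96, the lipopolysaccharide-binding partner of Tlr4, differed by -0.44 for Pre-miR-223 against Scramble, 0.23 for Anti-miR-223 against Scramble and -0.67 for Pre-miR-223 against Anti-miR-223, the last with an unadjusted limma p of 0.0415. Cd14, which hands lipopolysaccharide to that complex, differed by -0.10, 0.17 and -0.28 in the same order. In replicate 4 of Anti-miR-223 Ly96 was higher by 1.24, Cd180 by 1.46 and Cd14 by 0.71 than the mean of the other arrays. Without that array, Pre-miR-223 against Anti-miR-223 gave -0.39 for Ly96 (unadjusted limma p 0.129) and -0.11 for Cd14, and Anti-miR-223 against Scramble gave -0.05 and 0.005.

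Chaperones and transport proteins take receptors from the endoplasmic reticulum to their compartments. Unc93b1, the carrier of the nucleic acid receptors, differed by -0.03, 0.07 and -0.10 in the 3 comparisons, with a sign for Pre-miR-223 against Scramble that turned under centring. Of the list's 8 genes, 5 were lower after Pre-miR-223 than in Scramble but 1 of 8 after centring, beside 9525 and 6277 of 14611 genes. The chaperone Cnpy3 differed by -0.10 for Anti-miR-223 against Scramble, or -0.16 without replicate 4 and -0.045 without replicate 2 of Anti-miR-223, and Lrrc59, which helps load nucleic acid receptors for export, by -0.28 for Pre-miR-223 against Scramble and -0.23 for Pre-miR-223 against Anti-miR-223. Proteases that cut endosomal receptors to their active form included Ctsl, at -0.22 for Pre-miR-223 against Scramble, Ctsk, at 0.23 for Anti-miR-223 against Scramble, and Ctsb, at -0.32 for Pre-miR-223 against Anti-miR-223. Ctsb was higher by 1.13 in replicate 4 of Anti-miR-223 than in the other arrays. Without that array the differences for Pre-miR-223 against Anti-miR-223 were -0.03 for Ctsb and -0.02 for Lrrc59. Ctsk was then at 0.19 for Anti-miR-223 against Scramble.

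Adaptors carry the signal from the TIR domain. All 6 tested were lower after Pre-miR-223 than in Scramble, with a median of -0.15, but 4 of 6 after centring. After repeated quantile normalisation 5 of 6 were lower. The all-gene counts were 9525, 6277 and 8848 of 14611 lower. Myd88 differed by -0.18, -0.04 and -0.13 in the 3 comparisons, and Ticam1, the adaptor of Tlr3, by -0.17, -0.05 and -0.12. Ticam2, which links Tlr4 to Ticam1, differed by 0.30 for Anti-miR-223 against Scramble and by -0.53 for Pre-miR-223 against Anti-miR-223, the latter with an unadjusted limma p of 0.0278. In replicate 4 of Anti-miR-223 Ticam2 was higher by 1.03 than in the other arrays, Tirap, which bridges Tlr2 and Tlr4 to Myd88, by 0.91 and Pik3ap1 by 0.54, whereas Myd88 was higher by 0.08 and Ticam1 stood at -0.10. The median of the list there was 0.31 beside 0.08 for all genes. Without that array Ticam2 differed by 0.08 and -0.31 in those comparisons, the latter with an unadjusted limma p of 0.0839.

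Kinases and ubiquitin ligases relay the signal below the adaptors. Of 14 tested, 11 were lower after Pre-miR-223 than in Scramble but 5 of 14 after centring, beside 9525 and 6277 of 14611 genes. After repeated quantile normalisation 8 of 14 were lower in that comparison, beside 8848 genes. Irak1, the kinase recruited by Myd88, differed by -0.25 in that comparison, Traf6, the ubiquitin ligase below it, by 0.28 for Anti-miR-223 against Scramble, and Peli1, another ubiquitin ligase, by -0.24 for Pre-miR-223 against Anti-miR-223. When replicate 4 of Anti-miR-223 was left out these were 0.10 for Traf6 and -0.13 for Peli1. Peli1 was the 1 gene of 69 whose groups did not overlap in that last comparison, beside 1.67% of all genes. Transcription factors were lower for 5 of 5 after Pre-miR-223 than in Scramble, beside 9525 of 14611 genes, with a median of -0.31. After centring and after repeated quantile normalisation 5 of 5 stayed lower, beside 6277 and 8848 genes. Irf7, which drives interferon genes below Tlr7 and Tlr9, differed by -0.52 with an unadjusted limma p of 0.0127, and by -0.41 for Pre-miR-223 against Anti-miR-223 with one of 0.0426. Its lowest value was 4.66 in replicate 4 of Pre-miR-223, against 5.415 to 5.596 in the rest of that group, and without that array the differences were -0.32 and -0.20. The unadjusted limma p of the second was 0.0779 without replicate 4 of Anti-miR-223. Irf3, which acts below Tlr3 and Tlr4, read 4.30 to 4.47 after Pre-miR-223 and 4.55 to 4.83 in Scramble, a difference of -0.31 and the 1 gene of 69 without overlap, beside 2.98% of all genes. For Anti-miR-223 against Scramble it differed by -0.15, and by -0.28 without replicate 4 of Anti-miR-223, as that array was higher by 0.44 than the others.

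Negative regulators split evenly, 5 higher and 5 lower for Pre-miR-223 against Scramble, where Tnfaip3, a deubiquitinase that restrains NF-kB, differed by -0.19. Trafd1 differed by -0.24 for Anti-miR-223 against Scramble, or by -0.29 without replicate 4 of Anti-miR-223 (unadjusted limma p 0.0691 and 0.0351). Sigirr, an inhibitory receptor, differed by -0.14 for Pre-miR-223 against Anti-miR-223. Sigirr, with replicate 4 of Anti-miR-223 left out, differed by -0.26 in that comparison (unadjusted limma p 0.0468) and by 0.36 for Anti-miR-223 against Scramble (unadjusted limma p 0.00825), beside 0.24 with all arrays. Early response genes, those switched on by receptor signalling, were lower for 11 of 13 after Pre-miR-223 than in Scramble, with a median of -0.24. After centring 10 of 13 were lower, and after repeated quantile normalisation 12 of 13. The all-gene counts were 9525, 6277 and 8848 of 14611 lower. Tnf differed by -0.24, -0.12 and -0.12 in the 3 comparisons, and the chemokine Ccl5 by -0.28 in the first. For Anti-miR-223 against Scramble 10 of 13 were lower as well, beside 7665 of 14611 genes, and Cxcl10 differed by -0.21. Il12b, an interleukin subunit, differed by -0.22 for Pre-miR-223 against Anti-miR-223 with an unadjusted limma p of 0.0426. Without replicate 4 of Anti-miR-223 it differed by -0.24 with an unadjusted limma p of 0.0316. Sigirr and Il12b had 12-array means of 2.40 and 2.23, near the lowest level tested, log2 2.01. Socs1, Il1b, Il10 and Nos2 lay near that level too. In replicate 4 of Anti-miR-223, 5 of the 69 genes were over 2-fold higher than in the other arrays (7.25%, beside 4.43% of all genes), among them Ptgs2, the inducible cyclooxygenase, at 1.52, while Tnf was at 0.06. The median of the 69 there was 0.37.

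**Figure D5:**
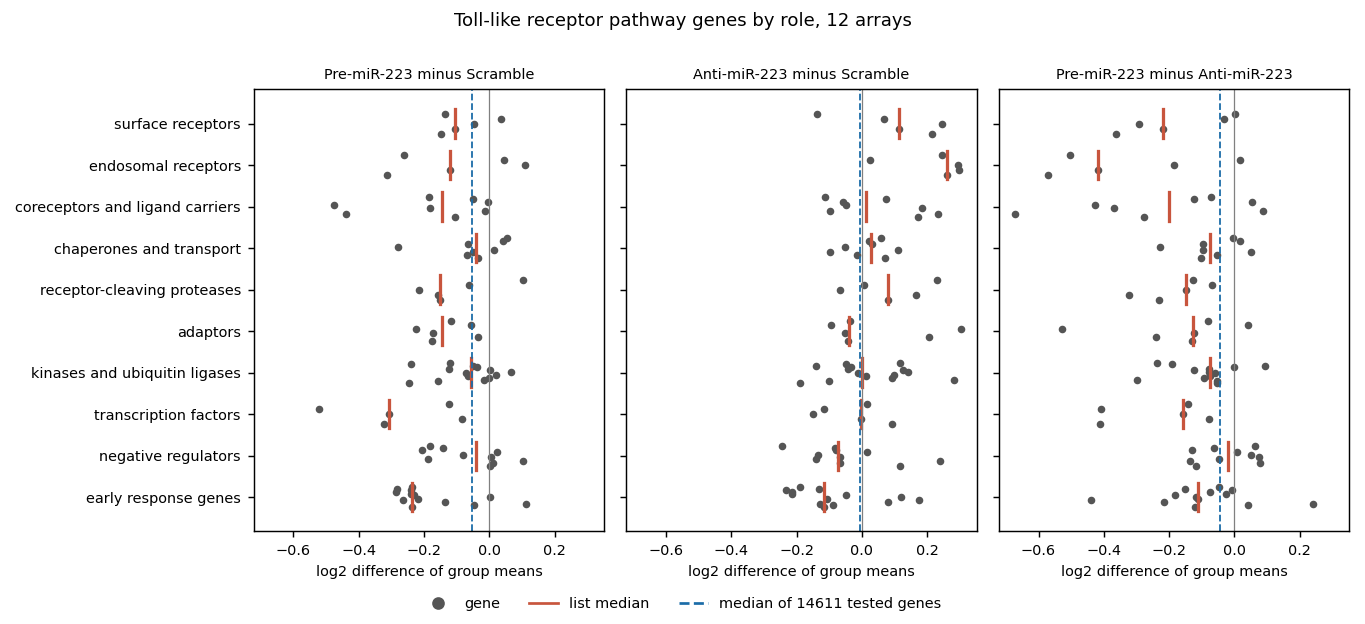
Log2 differences of group means in the 3 comparisons (panels) for the genes of the surface and endosomal receptor lists and of the 8 pathway lists (rows), with a mark for each list's median. After Pre-miR-223 against Scramble the medians run from -0.31 for transcription factors to -0.04 for negative regulators, and no gene was called.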

How the data were processed

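Total RNA of RAW 264.7 cells was measured on 12 Affymetrix whole-transcript arrays, 3 groups of 4. The authors deposited 1 table of log2 values for 41345 transcript clusters, with the arrays already normalised to each other. RMA, Partek and Affymetrix Expression Console appear in the submitters' processing notes, without versions or roles. RMA equalises array distributions, so a change in total RNA output cannot be seen. The log base was taken as 2, from values between 0.53 and 12.45 and the use of RMA. The genome build is not given in the sources used here, so no coordinates come from the array; those printed with sequences are RefSeq's, on GRCm38.p6.

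Of the clusters, 23521 had a single gene symbol, 1814 several and 16010 none in the annotation used, and only the first kind was kept. For each of 22180 symbols the cluster with the highest mean was taken, and genes with a mean above the 40th percentile of clusters, log2 2.01, were tested, 14611 in all, of which 14516 matched RefSeq by gene ID. The comparisons used limma 3.58.1 (R 4.3.3) in 1 model with 9 residual degrees of freedom, 2-sided, at a Benjamini-Hochberg adjusted p under 0.05. Precision is limited by the number of arrays, which have no read depth. Alternatives were other filters, centring or quantile normalisation, averaged clusters, a trended robust fit, only the compared groups, a replicate block and leaving out each array.

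The members and lists were chosen with earlier results of these data known. Genes named were all members, the gene with the smallest p of each list in each comparison, Cd14, Ly96, Unc93b1, Myd88, Ticam1 and Tnf, and the 3 genes most like the most variable surface and endosomal member, Tlr4 and Tlr9. Other genes were named after their values were seen. The fit was tested on simulated data.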

Additional observations from a re-analysis of the deposited data

Results flagged for a closer look

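Within the 102 sets of 4 arrays examined, 3 groups for each of the 10 members and 24 pathway genes named by rule, 5 had 1 array whose gap to the nearest other array took more of the range of the group than Dixon's 95% critical value; chance gives this in about 5% of sets. The share was 0.862 for Tlr3 in replicate 4 of Anti-miR-223, with 5.22 against 4.27 to 4.40 in the other arrays of the group. It was 0.855 for Tlr13 in the same array, with 8.46 against 6.16 to 6.50. Lrrc59 had 0.913 there, with 8.44 against 7.57 to 7.64, and Peli1 0.884, with 5.95 against 5.50 to 5.56. Tlr8 had 0.838 in replicate 2 of Pre-miR-223, with 3.54 against 3.12 to 3.18. Of the 5, 4 were in replicate 4 of Anti-miR-223.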

How the results depend on the processing

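None of the 10 members and 0 of all genes tested were called under any of the alternatives, whichever array was left out. Without replicate 4 of Anti-miR-223, limma gave 1371, 978 and 714 genes at an unadjusted p under 0.05 for the mimic against Scramble, the inhibitor against Scramble and the mimic against the inhibitor, where all arrays gave 711, 294 and 528; the cause was not tested. Without replicate 2 of Pre-miR-223 the first of these was 1510, and without replicate 4 of Pre-miR-223 it was 314. Centring turned the split of the 711 genes from 149 higher and 562 lower to 315 higher and 262 lower of 577, and that of the 528 genes from 153 and 375 to 336 and 202 of 538. Of 12 pairs with the same replicate number, 4 had correlated deviations above 0.1 and 4 correlated best with their own number. Replicate 2 of Pre-miR-223 correlated at 0.393 with replicate 2 of Scramble and at most -0.016 with the other Scramble arrays. For replicates 1 and 3 of Pre-miR-223 the best match in Scramble had another number. Deviations of the Anti-miR-223 arrays were taken from a mean that includes its replicate 4. These values therefore do not settle whether equal numbers were handled together. With the replicate number as a block, 0 genes were called and 547, 248 and 408 had an unadjusted p under 0.05.

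Of 240 member values under the 8 alternatives other than leaving out a single array, 3 changed sign: Tlr4 for Pre-miR-223 against Scramble was 0.033 after centring and 0.001 after quantile normalisation, and Tlr5 for Pre-miR-223 against Anti-miR-223 was 0.044 after centring. Unc93b1 for Pre-miR-223 against Scramble became 0.046 and 0.044 under the same 2 scalings. Leaving out 1 array at a time changed the sign of 33 of 360 member values and 8 of 468 pathway values, and moved 33 of the 39 pathway differences, like all 30 of the members, by over 1.5 times in some setting. For Pre-miR-223 against Scramble the ranges that crossed 0 were -0.13 to 0.052 for Tlr4, -0.048 to 0.14 for Tlr5, -0.35 to 0.17 for Tlr6, -0.27 to 0.013 for Tlr7, -0.004 to 0.11 for Tlr9 and -0.11 to 0.027 for Unc93b1. For Anti-miR-223 against Scramble they were -0.07 to 0.38 for Tlr1, -0.077 to 0.21 for Tlr2, -0.053 to 0.41 for Tlr4, -0.091 to 0.20 for Tlr5, -0.32 to 0.03 for Tlr6, -0.024 to 0.48 for Tlr8, -0.079 to 0.14 for Tlr9, -0.28 to 0.48 for Tlr13, -0.047 to 0.50 for Ly96, -0.038 to 0.16 for Unc93b1, -0.074 to 0.004 for Myd88 and -0.13 to 0.017 for Ticam1. For Pre-miR-223 against Anti-miR-223 they were -0.45 to 0.006 for Tlr4, -0.17 to 0.13 for Tlr5, -0.21 to 0.31 for Tlr6, -0.37 to 0.13 for Tlr8, -0.094 to 0.12 for Tlr9, -0.74 to 0.022 for Tlr13 and -0.19 to 0.005 for Unc93b1. With 4 arrays a group, differences within these ranges could not be resolved, and Tlr5 and Tlr8, the dimmest members, lay nearest the level required for testing.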
